A study of Mus musculus with 36 samples.

Results

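The genes described here encode the proteins of the mitochondrial ribosome. They were taken by symbol: every row of an RNA-seq table named Mrpl or Mrps followed by a number and at most 1 further letter, provided that the 8 libraries of that table averaged 10 normalized counts or more. Symbols ending in -ps, which mark pseudogenes, were left out. In the table of sorted cells 77 of 46078 rows met the rule, 48 named Mrpl (large subunit) and 29 named Mrps (small subunit). Mrpl58 is listed there under its older symbol Ict1 and so was not among them, and of the 78 rows with the form of the name only a repeated Mrps23 row at 0 was too low. In the table of cultured Pax5-/- cells 78 of 35896 rows met it, and in that of cultured wild-type and Sirt7-/- cells 78 of 18721. Both held 49 named Mrpl and 29 named Mrps. The large and small subunit counts below follow the name alone, which need not match where a protein sits.

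The study asked how SIRT7, a nuclear NAD-dependent deacetylase, acts on early B cells and on Pax5, the transcription factor that fixes B cell identity. The poly(A) RNA-seq libraries form 3 sets, each with 4 groups of 2. In the first, B220+IgM- bone marrow B cell progenitors of 129Sv mice of both sexes, aged 8 to 16 weeks, had been sorted by CD43 into pro-B (CD43+) and pre-B (CD43-) cells. The 2 wild-type and the 2 Sirt7-/- mice, which carry a germline deletion of Sirt7 exons 4 to 10 in all cells, each gave both stages. In the second, Pax5-/- progenitors of C57BL/6 background, all without functional Pax5, were grown on inactivated OP9 stromal feeder cells with IL-7, SCF and FLT3-L and transduced with retroviruses. These carried the empty vector (EV), Pax5WT, Pax5K198Q (glutamine in place of a lysine, a mimic of the acetylated residue) or Pax5K198R (arginine, a mimic of the deacetylated residue). In the third, bone marrow pro-B cells on the same feeder, from mice of the 129Sv background with the same deletion where Sirt7-/-, were wild-type with EV, or Sirt7-/- with EV, Pax5WT or Pax5K198R. The Pax5 forms were expressed from a virus and not from the gene's own promoter. Pax5 ChIP-seq peak lists, 2 for each of the 3 forms in Pax5-/- cells, were read at the starts of the same genes.

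Libraries carried 50603577 to 54896194 normalized counts in the sorted set, 28865461 to 30520853 in the Pax5-/- set and 27814214 to 30160880 in the third set. A normalized count is a gene's read count divided by a size factor of its library. The labels were checked on genes they name. Sirt7 read 2692 and 2533 normalized counts in the wild-type pro-B libraries and 363 and 366 in the Sirt7-/- ones, and 5613 and 5219 against 1066 and 821 in pre-B cells, so the deletion was visible in both stages. Pax5 read 2201 and 2103 in Pax5-/- cells with EV, 6458 and 6152 with Pax5WT, 8918 and 8963 with Pax5K198Q and 21162 and 16610 with Pax5K198R, so the forms were not expressed to the same level.

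Among the sorted libraries, 4 carry a cell type field that goes against their title, and the titles were used: Spn (CD43) was lower and Il2ra and Ms4a1 higher in all libraries titled pre-B. The second Sirt7-/- pre-B library stood apart. Kit, a receptor of pro-B cells, read 1529 to 1967 in pro-B libraries, 37.6 and 78.7 in wild-type pre-B libraries and 20.3 and 291 in Sirt7-/- pre-B libraries. The summed counts of erythroid genes were 72991 in that library and 48399 in the second Sirt7-/- pro-B library, which comes from the same mouse by its label, while the other 6 libraries lay between 5889 and 16539. The 7 natural killer cell genes summed to 1388 in the pro-B and 878 in the pre-B library of that mouse, against 681 and 160 in the other Sirt7-/- mouse. For the stage difference in Sirt7-/- cells the counts of the members, their subunits and the gene groups set beside them are therefore also given without these libraries.

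Mitochondria keep a small genome of their own whose messages all encode subunits of the respiratory chain and ATP synthase, and these messages are translated inside the organelle by a dedicated ribosome. Its RNAs come from mitochondrial DNA, but every one of its proteins is encoded in the nucleus, made on cytosolic ribosomes and imported. Many have a bacterial counterpart and keep its number, while others were added during the evolution of mitochondria and carry the later numbers. Dividing lymphoid cells make mitochondria as they grow, and Myc, the nuclear respiratory factors and GABP (an ETS factor) are known activators of genes of this kind.

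The stretches of 150 bases before a gene's start that are shown were picked because the results below turn on these genes or because they hold a motif that was searched. They come from the RefSeq promoter table of build GRCm38.p6, read 5′ to 3′ on the gene's strand. Capitals mark a match to a motif, and a stretch without capitals holds none of the motifs searched. Mrpl12, Mrps15 and Mrps22 were among the members with large decreases at the pre-B stage. Mrpl2 and Mrpl45 had Pax5 peaks in all 6 lists, and Mrpl9 is an example of the NRF1 motif. The stretches lie at chr11:120484463-120484612 (plus strand, Mrpl12), chr4:126046775-126046924 (plus, Mrps15), chr9:98601680-98601829 (minus, Mrps22), chr3:94443175-94443324 (plus, Mrpl9), chr17:46646071-46646220 (plus, Mrpl2) and chr11:97315566-97315715 (plus, Mrpl45), and none overlaps a coding exon.
Mrpl12: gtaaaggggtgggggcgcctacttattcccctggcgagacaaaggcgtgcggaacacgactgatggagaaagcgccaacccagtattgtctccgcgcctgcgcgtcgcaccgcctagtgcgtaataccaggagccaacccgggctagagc
Mrps15: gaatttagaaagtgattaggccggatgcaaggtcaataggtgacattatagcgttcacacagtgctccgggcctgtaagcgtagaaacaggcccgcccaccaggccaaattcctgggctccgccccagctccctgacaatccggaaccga
Mrps22: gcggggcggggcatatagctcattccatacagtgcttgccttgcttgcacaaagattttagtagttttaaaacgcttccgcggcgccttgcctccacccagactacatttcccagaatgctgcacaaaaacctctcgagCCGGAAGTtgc
Mrpl9: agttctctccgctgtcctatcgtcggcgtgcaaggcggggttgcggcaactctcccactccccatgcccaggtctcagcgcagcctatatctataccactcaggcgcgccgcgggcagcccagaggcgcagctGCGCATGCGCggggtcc
Mrpl2: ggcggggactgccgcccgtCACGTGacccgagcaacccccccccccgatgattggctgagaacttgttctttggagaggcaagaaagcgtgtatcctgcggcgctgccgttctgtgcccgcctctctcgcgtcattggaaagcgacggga
Mrpl45: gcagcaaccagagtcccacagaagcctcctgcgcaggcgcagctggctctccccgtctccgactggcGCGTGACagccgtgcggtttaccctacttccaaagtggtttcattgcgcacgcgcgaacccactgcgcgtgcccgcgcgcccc

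The motifs were searched on both strands of a window from 250 bases before to 50 bases after the start, which was found for 69 members. The ETS motif CCGGAAGT, shown in Mrps22, was held by 12 members (17.4%), against 9.21% of the 9823 tested genes with a window and 4.31% of all 27025 windows. The NRF1 motif GCGCATGC, shown in Mrpl9 where a match on each strand overlaps the other, was held by 8 members (11.6%, against 5.94% and 3.05%). The YY1 motif AGATGGCGG was held by 5 members (7.25%, against 2.81% and 1.24%). The E-box CACGTG, the letters bound by Myc and its relatives and shown in Mrpl2, was also held by 5 (7.25%), below its share of 11.5% of tested and 8.09% of all windows. GCGTGAC, a core of Pax5 sites shown in Mrpl45, was held by 4 (5.80%, against 4.47% and 2.43%). A match here is a description of the letters and not of binding.

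The members were expressed in every group, at levels that spread widely between genes. Per kilobase of transcript, the mean level of a member in sorted cells ran from 137 normalized counts for Mrpl17 to 5727 for Mrpl52, with a median of 849 and a ratio of 41.8 between the highest and the lowest. Mrpl1 also stood low, at 212. In Pax5-/- cells the range was 110 (Mrps25) to 2250 (Mrpl33) with a median of 630, and in the third set 107 (Mrpl17) to 2845 (Mrpl42) with a median of 773. Together the members made up 0.208% to 0.285% of a sorted library, 0.250% to 0.287% of a Pax5-/- library and 0.280% to 0.327% of a library in the third set.

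The first comparison asked what the members did between the pro-B and the pre-B stage. Most were lower in pre-B cells. In wild-type cells 29 of 77 were called lower and 3 higher (limma on log2 of the normalized count plus 1, Benjamini-Hochberg adjusted p under 0.05 over all 17649 genes tested), with a median log2 difference of -0.36. In Sirt7-/- cells 37 were called lower and 3 higher, with a median of -0.41. The stages differed in many genes besides, with 22.0% of all tested genes called lower and 18.1% higher in wild-type cells and 19.2% lower and 16.5% higher in Sirt7-/- cells, and the median over all tested genes was -0.04 in each genotype. Of a library's normalized counts the members took 0.273% and 0.270% of the wild-type pro-B libraries and 0.216% and 0.208% of the pre-B ones, and 0.282% and 0.285% against 0.216% and 0.217% in Sirt7-/- cells, so the stages did not overlap. The number called lower depended on each library, and so did that of all genes. It was 15 (19.5% of 77, where 15.0% of all genes were called lower) and 15 (14.0% of all genes) in wild-type cells without pro-B replicates 1 and 2, and 19 (24.7%, where 16.9% of all genes were) and 16 (20.8%, against 17.0%) without pre-B replicates 1 and 2. For Sirt7-/- cells it was 15 (19.5%, against 10.7%) and 9 (11.7%, against 10.2%) without pro-B replicates 1 and 2, and 18 (23.4%, against 12.2%) and 30 (39.0%, against 18.6%) without pre-B replicates 1 and 2. Without the second Sirt7-/- pro-B library the share of members called lower was thus near that of all genes. The median stayed between -0.49 and -0.32 in all of these fits. Of the 32 members called in wild-type cells 13 kept the call whichever library was left out, and of the 40 in Sirt7-/- cells 7 did (Mrpl12, Mrpl42, Mrpl51, Mrps2, Mrps5, Mrps15 and Mrps22), while no called member changed sign. The share of all called genes that kept the call is not given here, so these counts are a description and not a result particular to the members. In bulk libraries fewer cells that express a gene and less of its RNA per cell cannot be told apart.

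**Figure D1:**
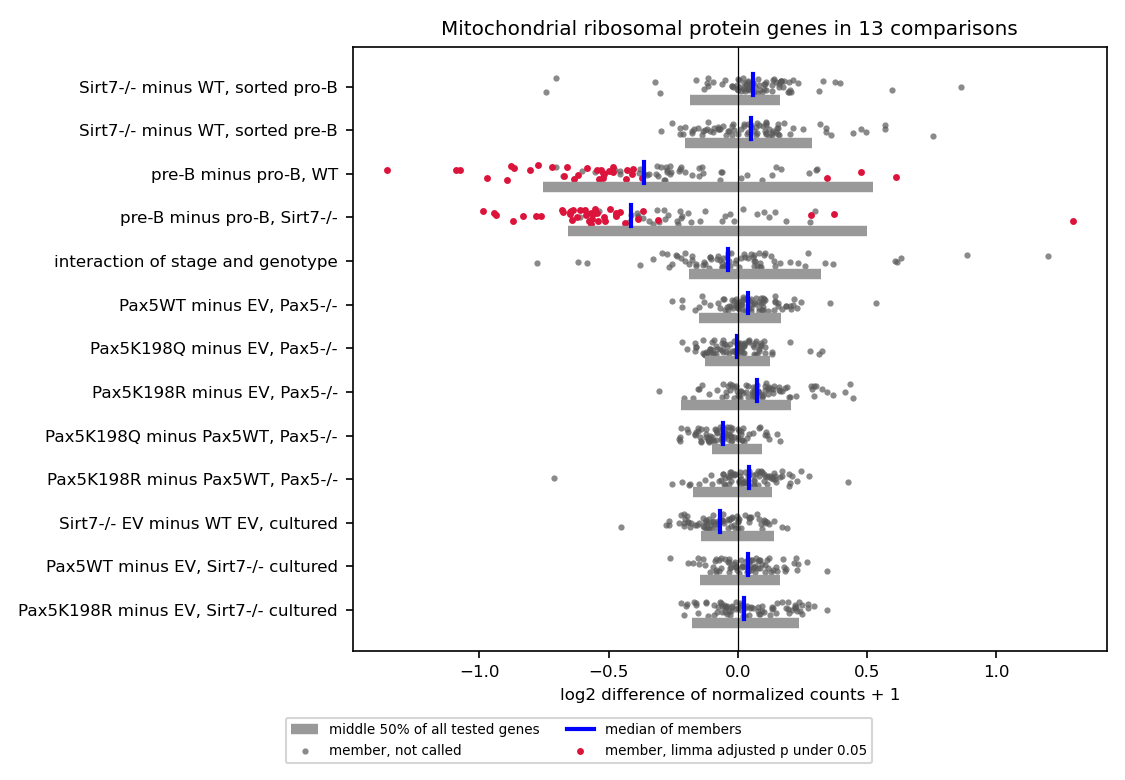
Log2 difference of each mitochondrial ribosomal protein gene (1 point a gene, red where called by limma) in each comparison, with their median (blue line) and the middle 50% of all tested genes (gray bar). The pre-B minus pro-B differences lie mostly below 0 in both genotypes, with medians of -0.36 and -0.41, while those of the other comparisons lie around 0.

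Mrpl12, the stalk protein of the large subunit that also binds the mitochondrial RNA polymerase, fell most in both genotypes. It lies on chr11:120484613-120489065, plus strand. It read 4610 and 4771 normalized counts in wild-type pro-B libraries and 1878 and 1782 in pre-B libraries, and 5081 and 5035 against 2306 and 2819 in Sirt7-/- cells. No pre-B library reached a pro-B library. The log2 difference was -1.36 (SE 0.11, limma adjusted p 0.000311) in wild-type and -0.99 (limma adjusted p 0.00131) in Sirt7-/- cells.

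Mrps15, a small subunit protein with a bacterial counterpart that binds ribosomal RNA, lies on chr4:126046925-126055532, plus strand. Its wild-type counts were 2410 and 2572 in pro-B and 1115 and 1222 in pre-B cells, and its Sirt7-/- counts 2527 and 2820 against 1579 and 1423. The stages again did not overlap, with log2 differences of -1.09 (SE 0.12, limma adjusted p 0.000645) and -0.83 (limma adjusted p 0.00242).

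Mrpl42, a large subunit protein without a bacterial counterpart, lies on chr10:95480805-95501940, minus strand. In wild-type cells it went from 3720 and 3999 at the pro-B stage to 1661 and 2011 at the pre-B stage, and from 4434 and 4276 to 2066 and 2513 in Sirt7-/- cells. Its log2 differences were -1.08 (SE 0.14, limma adjusted p 0.00122) and -0.93 (limma adjusted p 0.00298). Mrps22, a small subunit protein particular to mitochondrial ribosomes (chr9:98588730-98601660, minus strand), is a less abundant message. It read 855 and 864 in wild-type pro-B and 397 and 484 in pre-B cells, and 887 and 970 against 464 and 499 in Sirt7-/- cells. Every pre-B library of the 4 was below every pro-B library for both genes, and the log2 difference of Mrps22 was -0.97 (SE 0.15, limma adjusted p 0.00253) and -0.94 (limma adjusted p 0.0038). Mrps5, which sits at the small subunit's messenger entrance side and keeps its bacterial number (chr2:127587222-127606829, plus strand), completed the 5 members with the largest F statistic over the 4 sorted groups. It read 2732 and 2838 against 1872 and 1842 in wild-type and 2896 and 2834 against 1979 and 2095 in Sirt7-/- cells, a decrease of -0.58 and -0.49.

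**Figure D2:**
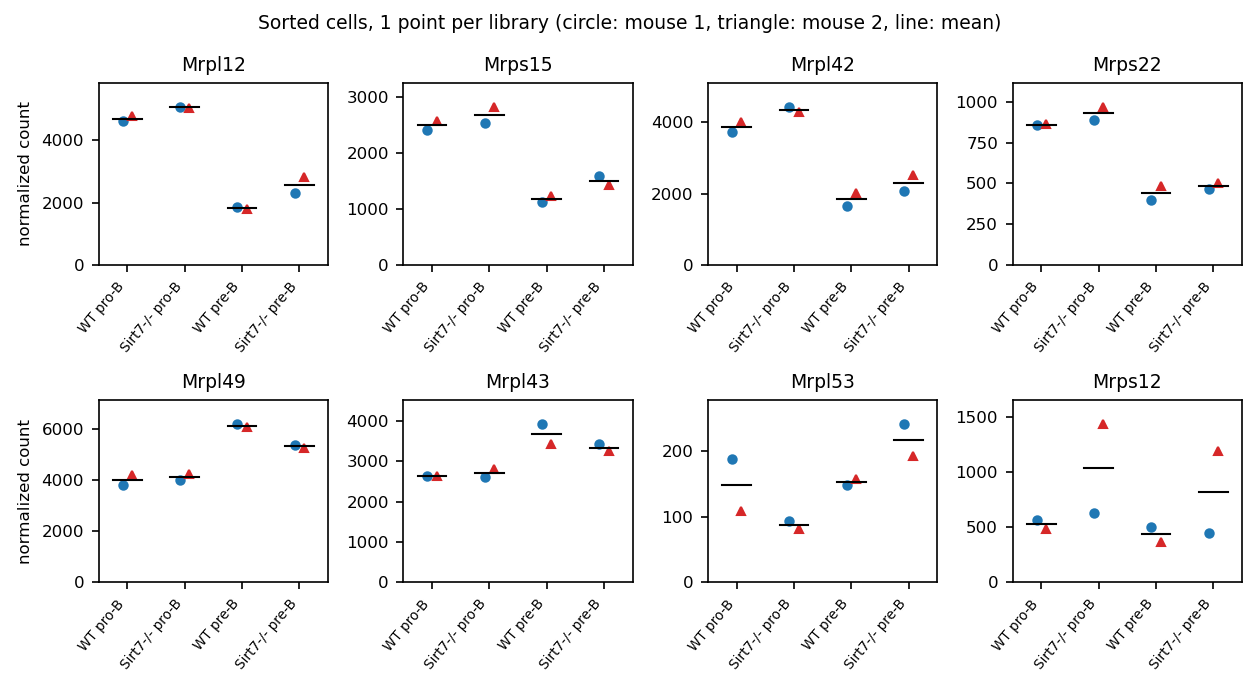
Normalized counts of 8 mitochondrial ribosomal protein genes in the sorted libraries, by stage and genotype (circle, mouse 1 of a genotype, triangle, mouse 2, line, their mean). Mrpl12, Mrps15, Mrpl42 and Mrps22 are lower in all 4 pre-B libraries than in all 4 pro-B libraries, Mrpl49 and Mrpl43 are higher, and Mrps12 is high in mouse 2 of the Sirt7-/- genotype.

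Among genes named Mrpl 19 of 48 were called lower and 3 higher in wild-type cells (median -0.38). In Sirt7-/- cells 23 were called lower and 3 higher (median -0.42). These counts are to be read against the shares of all genes above. With the second Sirt7-/- pre-B library left out 19 were called lower and 2 higher (median -0.39, where 18.6% of all genes were called lower), and without the second pro-B library 5 lower and 0 higher (median -0.41, where 10.2% were). Besides Mrpl12 and Mrpl42, those called lower in both genotypes included Mrpl28 (-0.88 and -0.54), Mrpl13 (-0.80 and -0.68), Mrpl18 (-0.67 and -0.62), which is of the 5S ribosomal RNA binding family, Mrpl51 (-0.66 and -0.65), and Mrpl45 (-0.37 and -0.58), which lies at the exit of the protein tunnel and holds the ribosome at the inner membrane. Mrpl52 was called in wild-type cells (-0.89, limma adjusted p 0.0118), where its pro-B counts of 3639 and 3055 stood above its pre-B counts of 2205 and 1457. In Sirt7-/- cells Mrpl52 read 3106 and 2858 against 2564 and 2327 and did not pass. Mrpl11, at the base of the stalk, passed in Sirt7-/- cells (-0.64, limma adjusted p 0.0156) and not in wild-type cells (-0.38, limma adjusted p 0.0776). Mrpl10, the stalk's anchor, passed in neither (-0.15 and -0.05), nor did Mrpl3 (-0.26 and -0.36) and Mrpl4 (-0.22 and -0.02).

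Among genes named Mrps 10 of 29 were called lower and 0 higher in wild-type cells (median -0.35). In Sirt7-/- cells 14 were called lower and 0 higher (median -0.39). Of all tested genes 22.0% and 19.2% were called lower in these 2 fits. Leaving out the second Sirt7-/- pre-B library, 11 were called lower (median -0.46) and without the second pro-B library 4 (median -0.39), with 0 higher and against the same 18.6% and 10.2% of all genes. Those lower in both genotypes included Mrps28 (-0.77 and -0.78), Mrps27 (-0.72 and -0.76) and Mrps2 (-0.43 and -0.56). Mrps36, which despite its name is now placed in the 2-oxoglutarate dehydrogenase complex and not in the ribosome, was also lower in both (-0.52 and -0.55). The 3 Mrps18 paralogs were not tested against each other. Mrps18a was called in both genotypes (-0.54 and -0.47), Mrps18b in Sirt7-/- cells (-0.55) and not in wild-type cells (-0.38, limma adjusted p 0.0739), and Mrps18c in Sirt7-/- cells (-0.65, limma adjusted p 0.0326) with a wild-type value of -0.06. Mrps12, of the decoding centre, passed in neither (-0.28 and -0.39).

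The members called higher in pre-B cells were few and all named Mrpl. Mrpl49, which has no bacterial counterpart (chr19:6053622-6057785, minus strand), read 3821 and 4189 in wild-type pro-B and 6188 and 6059 in pre-B cells, and 3980 and 4230 against 5376 and 5256 in Sirt7-/- cells. The stages did not overlap, and the rise was 0.61 (SE 0.09, limma adjusted p 0.00181) and 0.37 (limma adjusted p 0.016) on the log2 scale. Mrpl43 (chr19:45004829-45006442, minus strand) rose from 2631 and 2636 to 3923 and 3427 in wild-type cells, by 0.48 (limma adjusted p 0.0101). In Sirt7-/- cells it read 2605 and 2810 against 3420 and 3242, a difference of 0.30 that did not pass (limma adjusted p 0.0601). Mrpl24, a protein of the tunnel region (chr3:87919506-87923672, plus strand), rose by 0.34 (limma adjusted p 0.0145) and 0.28 (limma adjusted p 0.0328), from 5588 and 5833 to 6936 and 7573 in wild-type and from 5840 and 5888 to 7144 and 7141 in Sirt7-/- cells. Each of these 3 genes overlaps a protein-coding gene on the opposite strand: Syvn1 for Mrpl49, Twnk for Mrpl43 and Rrnad1 for Mrpl24. The same holds for members called lower, for example Mrpl13 (Mtbp), Mrpl18 (Tcp1) and Mrps18a (Rsph9). The library kit marks the strand, but whether the counting used it is not given in the sources used here, and the part of the neighbours' reads in these values was not tested. Of the 78 members, 42 overlap another annotated gene, 36 of them on the opposite strand and 26 a protein-coding gene.

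Mrpl53 (chr6:83109040-83109939, plus strand), which overlaps the protein-coding gene Gm42688 on the same strand, was a low and unsteady message. It read 188 and 108 in wild-type pro-B and 147 and 157 in pre-B cells, which overlap, and 93.6 and 81.2 against 241 and 193 in Sirt7-/- cells, which do not. The rise of 1.30 in Sirt7-/- cells (SE 0.31, limma adjusted p 0.0175) did not pass without pre-B replicate 1 or either pro-B replicate, when it was 1.14, 1.40 and 1.20. Mrps6 was of similar abundance, at 260 and 386 in Sirt7-/- pro-B and 170 and 176 in pre-B cells, and its decrease of -0.87 there passed narrowly (limma adjusted p 0.045). In wild-type cells it read 228 and 260 against 134 and 191, a difference of -0.60 that did not pass.

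The genotypes share no library, so their stage differences can be set side by side gene by gene. Of the members, 25 were called lower in both, which is 86.2% of the 29 in wild-type and 67.6% of the 37 in Sirt7-/- cells. Of all tested genes 2872 were called lower in both, which is 73.8% of those called lower in wild-type and 85.0% of those in Sirt7-/- cells. Another 2, Mrpl49 and Mrpl24, were called higher in both, 32 were called in neither and 0 in opposite directions. The sign was the same for 74 of 77, and Pearson's r across the 77 genes was 0.68, as a description over genes that are not independent. Over all 17649 tested genes the sign was the same for 85.0% and r was 0.81, so this likeness was not particular to the members. Among the 25 the decrease was larger in wild-type cells for 13. Within each mouse the median difference of the members was -0.32 and -0.40 in the wild-type mice and -0.40 and -0.43 in the Sirt7-/- mice, and 60 to 68 of the 77 were below 0.

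**Figure D3:**
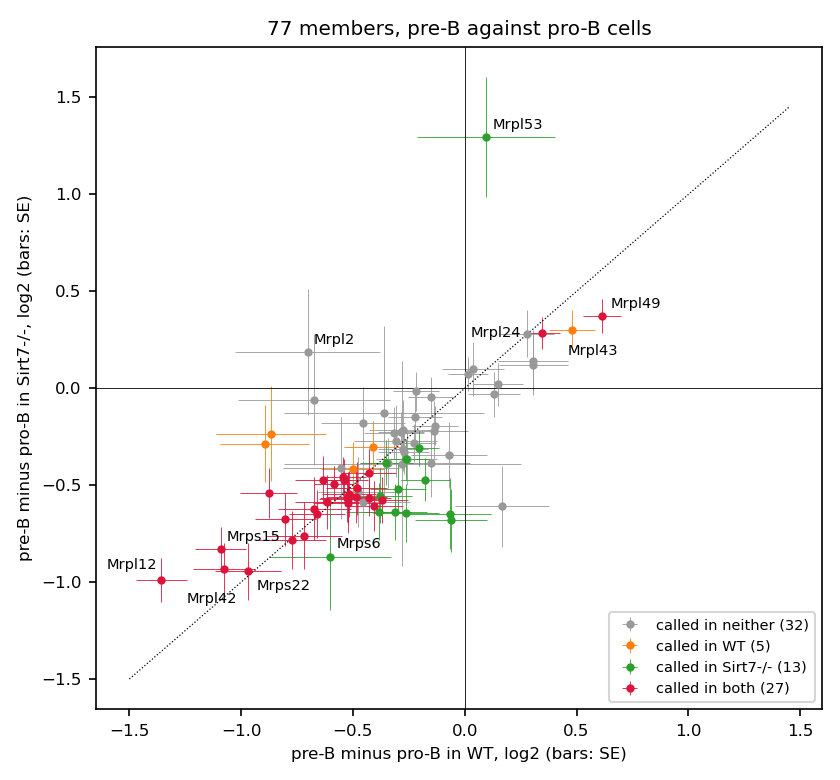
Log2 difference between pre-B and pro-B cells in wild-type (x axis) and Sirt7-/- cells (y axis) for the 77 members, 1 point a gene, with bars of 1 standard error, a dotted line where both are equal, and color by the genotype in which the gene was called. The 25 genes called lower in both genotypes lie in the lower left, Mrpl12 farthest, and 74 of 77 genes have the same sign on both axes.

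Members that keep a bacterial number, taken as L1 to L36 and S1 to S21, numbered 44. Of all tested genes 22.0% were called lower and 18.1% higher in wild-type cells, and 19.2% and 16.5% in Sirt7-/- cells. In wild-type cells 16 of these 44 members were called lower and 1 higher (median -0.39). Of the 33 with later numbers 13 were called lower and 2 higher (median -0.31). In Sirt7-/- cells the counts were 25 lower and 1 higher (median -0.47) against 12 lower and 2 higher (median -0.31). They were, without the second Sirt7-/- pre-B library, 20 lower and 0 higher (median -0.48) against 10 lower and 2 higher (median -0.30), and without the second pro-B library 5 lower (median -0.45) against 4 lower (median -0.34), where 18.6% and 10.2% of all genes were called lower. Whether the classes differ was not tested.

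Genes that work beside the mitochondrial ribosome were read from the same fits, without a test of their difference from the members. In these fits 22.0% of all tested genes were called lower and 18.1% higher in wild-type cells, and 19.2% and 16.5% in Sirt7-/- cells. Of the 88 cytosolic ribosomal protein genes 57 were called lower and 2 higher in wild-type cells (median -0.40) and 41 lower and 2 higher in Sirt7-/- cells (median -0.31). Of the 80 nuclear-encoded respiratory chain genes 42 were called lower and 2 higher (median -0.41), then 46 lower and 2 higher (median -0.39). Of the 15 genes encoded by mitochondrial DNA itself 0 were called in wild-type cells (median 0.07), and 4 were called higher in Sirt7-/- cells (median 0.18): mt-Nd4l (0.46), mt-Nd6 (0.30), mt-Nd4 (0.28) and mt-Nd5 (0.28), all subunits of complex I. The 24 cell cycle genes were all called lower in both genotypes, with medians of -1.69 and -1.12. Without the second Sirt7-/- pre-B and pro-B library in turn, the Sirt7-/- counts became 24 and 17 lower of the cytosolic ribosomal protein genes (medians -0.28 and -0.25), 35 and 16 lower of the respiratory chain genes (-0.41 and -0.33) and 24 and 17 lower of the cell cycle genes (-1.40 and -1.11). Of the genes of mitochondrial DNA 0 were called in either case (0.20 and 0.21), and of all genes 18.6% and 10.2% were called lower.

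The smaller groups that follow are to be read against the 22.0% of all tested genes called lower and 18.1% higher in wild-type cells and the 19.2% and 16.5% in Sirt7-/- cells. Of 26 genes for assembly of the mitochondrial ribosome, 4 were called lower and 6 higher in wild-type cells (median 0.01) and 5 lower and 3 higher in Sirt7-/- cells (median -0.08). Tfb1m, which methylates the small ribosomal RNA (-1.24 and -1.09), Mettl15 (-1.06 and -1.13) and Noa1 (-0.72 and -0.80) fell, while Mettl17 (0.89 and 0.71), Nsun4 (0.69 and 0.52) and the helicase Dhx30 (0.37 and 0.36) rose. Of the translation factors, 16 rows for 15 symbols, 4 were called lower and 1 higher in wild-type and 3 lower and 1 higher in Sirt7-/- cells (median -0.09 in each). They included the recycling factor Mrrf (-0.72 and -0.80), the elongation factor Tufm (-0.71 and -0.53) and Gfm2 (0.61 and 0.43). Of 20 mitochondrial tRNA synthetases 7 were lower and 1 higher, then 4 lower and 1 higher (median -0.29 in each), with Hars2 at 0.70 and 0.41. Of 14 genes of mitochondrial protein quality control 8 were lower and 1 higher, then 7 lower and 0 higher (medians -0.37 and -0.34), led by the chaperonin Hspd1 (-1.78 and -1.64) and Hspa9 (-1.61 and -1.55). Of 12 genes for transcription and copying of mitochondrial DNA 1 was lower and 3 higher in wild-type cells and 0 lower and 3 higher in Sirt7-/- cells (medians 0.18 and 0.05), with Mterf2 at 1.21 and 0.91. Of 6 ribosomal proteins with other names 1 was lower in each genotype, Dap3 (-0.41) in wild-type and Chchd1 (-0.49) in Sirt7-/- cells. Without the second Sirt7-/- pro-B library, where 10.2% of all genes were called lower and 10.8% higher, the Sirt7-/- calls became 1 lower and 0 higher for assembly, 0 for translation factors, 2 lower and 0 higher for tRNA synthetases, 6 lower for protein quality control, 2 higher for mitochondrial DNA and 0 for the ribosomal proteins with other names. Without the second pre-B library, where 18.6% were called lower and 14.5% higher, they were, in the same order, 3 lower and 4 higher, 3 lower and 0 higher, 5 lower and 0 higher, 6 lower, 1 lower and 3 higher, and 1 lower.

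Of 13 upstream regulators, 3 were called lower and 1 higher in wild-type and 2 lower and 2 higher in Sirt7-/- cells. These counts too are to be read against the shares of all tested genes given for the smaller groups above. Myc, an activator of growth and ribosome genes, read 7753 and 5040 in wild-type pro-B and 552 and 449 in pre-B cells, and 5481 and 7340 against 983 and 1902 in Sirt7-/- cells. The stages did not overlap, and the log2 difference was -3.65 and -2.21. Ppargc1b, a coactivator of mitochondrial genes, also fell (-2.34 and -1.38), as did Mycn in wild-type cells (-1.51), while the nuclear receptor Esrra rose (1.33 and 1.19). Without the second Sirt7-/- pre-B or pro-B library, 2 regulators were called lower and 1 higher in that genotype.

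Markers of other cells also moved between the stages. The summed normalized counts of 10 T cell genes were 7047 and 7081 in wild-type pro-B and 3290 and 3195 in pre-B libraries, and 7391 and 6835 against 3623 and 3905 in Sirt7-/- cells. Lck was the most abundant of them, 0 of the 10 were at 0 in pro-B and 3 to 5 in pre-B libraries. Myeloid genes summed to 33724 and 24661 against 15228 and 14902 in wild-type and 27076 and 9554 against 11503 and 10680 in Sirt7-/- cells, where the second mouse did not show the decrease. Itgam, the most abundant of the 9, went the other way, at 4085 to 5096 in pro-B and 8351 to 9154 in pre-B libraries. Natural killer cell genes summed to 638 and 560 against 360 and 190 in wild-type cells. In Sirt7-/- cells they summed to 681 and 1388 against 160 and 878. Of these, Nkg7 read 210 and 204 against 59.6 and 41.5 in wild-type and 252 and 406 against 22.4 and 169 in Sirt7-/- cells. The 8 stromal genes, with Fn1 the most abundant, summed to 1702 and 1588 against 937 and 582, and 961 and 792 against 557 and 528. The 5 plasma cell genes summed to 32763 and 72884 against 15216 and 15786, and 51388 and 50100 against 15581 and 13800, of which Jchain made up 20006 and 57036 against 881 and 1307, and 37239 and 35602 against 2191 and 2114. The part of these cells in the stage difference was not tested.

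The next comparison asked whether loss of SIRT7 moved the members within a stage. In pro-B cells 0 of 77 were called, where 0.0623% of all tested genes were (11 of 17649). Of the members 3 had an unadjusted limma p under 0.05, as did 1048 of all genes. The median difference was 0.06 (0 over all tested genes). Above 0 were 60 of 77 members, and 25 of the 29 named Mrps. The share of all genes above 0 is not given here. The cytosolic ribosomal protein genes read likewise, with 83 of 88 above 0 and a median of 0.12. Without the second Sirt7-/- pro-B library 56 members were above 0 (median 0.05) and 70 cytosolic ribosomal protein genes (median 0.06), with 0 called. Mrps25 had the smallest unadjusted p, at 1096 and 1441 in wild-type and 1912 and 1893 in Sirt7-/- libraries, a difference of 0.60 (SE 0.21, limma adjusted p 0.776). The groups did not overlap, but the adjusted value is far from the threshold.

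In pre-B cells 0 of 77 were called as well, where 0.0850% of all tested genes were (15 of 17649). The median was 0.05 (0.02 over all tested genes) and 47 members were above 0. At an unadjusted limma p under 0.05 stood 3 members, against 2405 of all 17649 genes. These 3 were Mrpl12, Mrps15 and Mrpl28. The wild-type pre-B libraries are the same as in the stage comparison, where these genes were called lower. Mrpl12 was higher in both Sirt7-/- libraries than in both wild-type ones, by 0.48 (SE 0.11, unadjusted limma p 0.00418, adjusted p 0.165). DESeq2 on the reads recovered from the table called it, also at 0.48 (SE 0.14, DESeq2 adjusted p 0.0156), and edgeR called 0. Of all genes DESeq2 called 4.12% in this comparison (728 of 17649) and edgeR 0.0283% (5). Without any 1 of the 4 pre-B libraries limma called 0 as well. Mrpl12 lies 129307 bases from Sirt7 (chr11:120618372-120625240, minus strand), with 10 coding genes between them, on the chromosome that carries the deletion. Mrps15 differed by 0.36 and Mrpl28 by 0.34. In the same libraries 84 of 88 cytosolic ribosomal protein genes were above 0 (median 0.21) and 24 of 24 cell cycle genes (median 0.52), with 0 of either called. Without the second Sirt7-/- pre-B library 44 members were above 0 (median 0.02), 85 cytosolic ribosomal protein genes (median 0.21) and 23 cell cycle genes, whose median was then 0.27. Mki67, a marker of cycling cells, read 41322 and 65706 in the Sirt7-/- and 31857 and 48299 in the wild-type pre-B libraries, which overlap.

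The difference of the stage effect between the genotypes was an interaction term in the same fit. It was called for 0 members, where 0.00567% of all tested genes were (1 of 17649). An unadjusted limma p under 0.05 was reached by 959 of all genes and by 3 members: Mrps25 (-0.78), Mrpl15 (-0.62) and Mrpl53 (1.20). For Mrpl12 the interaction term was 0.37 (SE 0.16, unadjusted limma p 0.0562). The difference between the numbers of members called in the genotypes, 32 and 40, was not itself tested.

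Mrps12 (chr7:28739641-28741820, minus strand) varied between mice. It read 565 and 484 in wild-type pro-B, 503 and 368 in wild-type pre-B, 631 and 1436 in Sirt7-/- pro-B and 444 and 1191 in Sirt7-/- pre-B libraries. The second Sirt7-/- mouse was high at both stages, and the genotypes overlapped in pre-B cells. Sars2, its neighbour on the chromosome, read 2173 to 3035 over the 8 libraries.

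**Figure D4:**
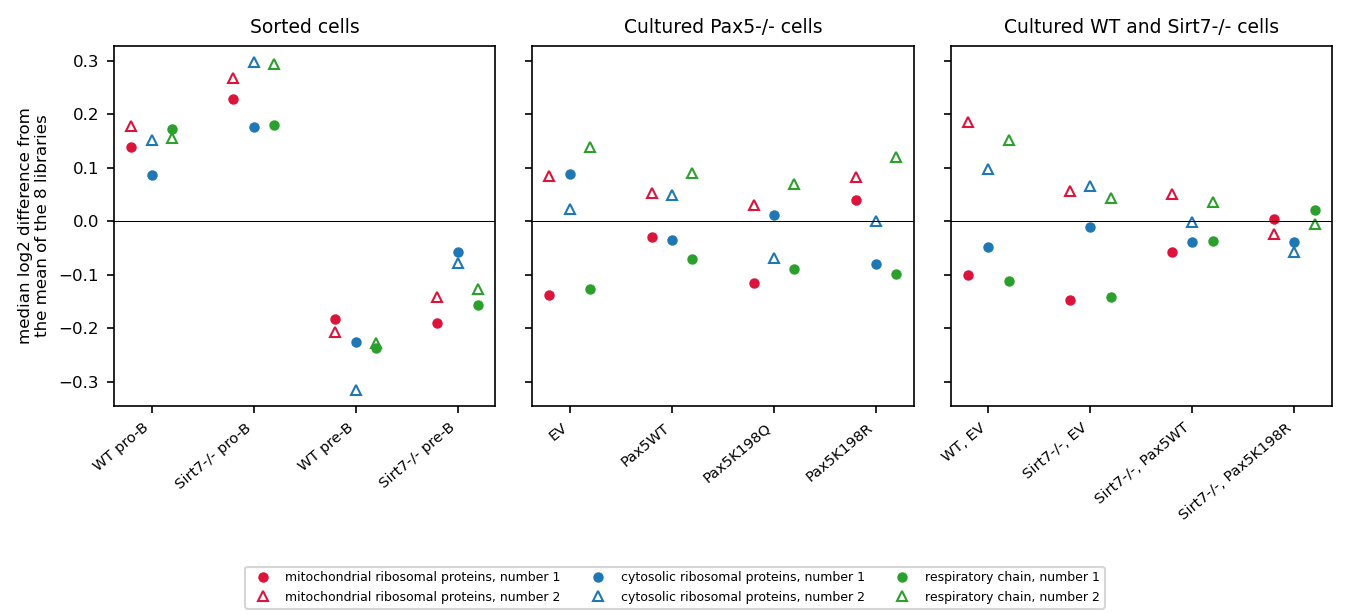
Median over the mitochondrial ribosomal protein genes (red), the cytosolic ones (blue) and the respiratory chain genes (green) of the log2 difference of a library from the mean of the 8 libraries of its set (circle, replicate 1, triangle, replicate 2). In red, the 4 sorted pro-B libraries lie above 0 and the 4 pre-B libraries below, while in the cultured sets libraries above and below 0 occur within most groups.

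In the cultured Pax5-/- cells the comparisons asked what returning Pax5, or a form altered at this lysine, did to the members. Without a term for the replicate number no member was called. Pax5WT against EV called 0 of 78, where 3.25% of all tested genes were called (434 of 13345), with a median of 0.04, 54 members above 0 and 1 at an unadjusted limma p under 0.05. Pax5K198Q against EV called 0 (0.922% of all genes), with a median of 0.00, 37 above 0 and 1 at the unadjusted level. Pax5K198R against EV called 0 (9.92% of all genes), with a median of 0.07, 58 above 0 and 2 at the unadjusted level. These 3 comparisons share the EV libraries. Over all tested genes their medians were 0.005, -0.007 and 0.013. In the same order, 1921, 1049 and 3056 of all 13345 genes were at the unadjusted level. Between forms, Pax5K198Q against Pax5WT called 0 (0.0225% of all genes, median -0.06), with 0 members and 462 of all genes at the unadjusted level. Pax5K198R against Pax5WT called 0 (2.87% of all genes, median 0.04), with 2 members and 1696 of all genes at that level. The median standard error of a member was 0.14, which limits the differences that could be told from the spread, and a value that missed the threshold does not show that the forms act alike. The libraries of the same number deviated together in this set, and with the number as a block limma called 1 member for Pax5WT against EV (Mrpl52), 3 for Pax5K198R against EV (Mrpl13 at 0.28, Mrpl30 at 0.30 and Mrpl42 at 0.42) and 1 for Pax5K198R against Pax5WT (Mrpl52). These are 1.28%, 3.85% and 1.28% of the 78 members, where the blocked fit called 10.1%, 21.2% and 7.52% of all tested genes. Leaving out an EV library turned the median of Pax5WT (-0.08 to 0.15), Pax5K198Q (-0.14 to 0.10) and Pax5K198R (-0.02 to 0.19) against EV.

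The members with an unadjusted limma p under 0.05 in these comparisons included Mrpl52 and Mrps23, which have no bacterial counterpart, and Mrpl35 and Mrpl19, which have. Mrpl52 read 373 and 478 with EV, 539 and 697 with Pax5WT, 536 and 514 with Pax5K198Q and 354 and 395 with Pax5K198R. Its Pax5WT and Pax5K198R groups did not overlap, and differed by -0.71 (SE 0.18, unadjusted limma p 0.00507, adjusted p 0.108). With the replicate block the limma adjusted p of this difference was 0.0202, and that of Pax5WT minus EV (0.54) was 0.0476. Mrps23 read 1009 and 978 with EV and 1274 and 1143 with Pax5K198Q, a difference of 0.28 (limma adjusted p 0.536). Mrpl35 read 411 and 474 with EV and 524 and 692 with Pax5K198R (0.45, limma adjusted p 0.185), and Mrpl19 read 1300 and 1741 against 2167 and 1912 (0.44, limma adjusted p 0.127). Mrpl12, so different between the sorted stages, read 1619 and 1956 with EV, 1685 and 1930 with Pax5WT, 1547 and 1927 with Pax5K198Q and 1762 and 1899 with Pax5K198R, and all 4 groups overlapped. Among the other mitochondrial translation genes, Gtpbp10, a GTPase of large subunit assembly, was lower with Pax5K198R than with EV (-1.84) and than with Pax5WT (-2.27). Mycn (-1.41) fell and Mterf2 (0.85) rose with Pax5K198R against EV.

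In the third set the Sirt7-/- EV cells differed from wild-type EV cells in 0 members, where 0.557% of all tested genes were called (76 of 13651), with a median of -0.07 and 23 of 78 members above 0. The median over all tested genes was -0.01. Sirt7 itself differed by -1.60. Among the members only Mrps16, a small subunit protein with a bacterial counterpart, had an unadjusted limma p under 0.05, against 1322 of all 13651 genes. It read 970 and 1190 in wild-type EV, 745 and 829 in Sirt7-/- EV, 803 and 922 with Pax5WT and 836 and 832 with Pax5K198R, so both wild-type libraries stood above the other 6, and the EV difference was -0.45 (SE 0.14, limma adjusted p 0.298). In sorted Sirt7-/- cells the medians were above 0 and here below 0, and limma called no member in either. DESeq2 on recovered reads called Mrpl12 in the sorted pre-B comparison. Adding Pax5WT to Sirt7-/- cells called 0 members (0.0366% of all genes, median 0.04), and adding Pax5K198R called 0 (4.83% of all genes, median 0.02). Both were set against the same EV libraries, with 0 members at an unadjusted limma p under 0.05, against 1353 and 2512 of all genes. The medians turned when an EV library was left out, to -0.08 and 0.13 for Pax5WT and to -0.07 and 0.13 for Pax5K198R without EV replicates 1 and 2, and that of Sirt7-/- EV against wild-type EV to -0.21 and 0.07 without wild-type replicates 1 and 2. The replicate block called 0 members in this set. Mrpl24 had the largest F statistic over the 4 groups, at 1984 and 2015 in wild-type EV, 1751 and 1664 in Sirt7-/- EV, 1486 and 1628 with Pax5WT and 1798 and 1689 with Pax5K198R, where again both wild-type libraries were highest. Mrpl12 read 1163 and 1590, 1220 and 1515, 1338 and 1541, and 1305 and 1417 in the same order of groups, which overlapped.

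In both cultured sets the members differed between the libraries numbered 1 and 2 of a group by amounts as large as the medians between groups. In the Pax5-/- set the median log2 difference of replicate 2 from replicate 1 was 0.22 with EV (71 of 78 members higher), 0.08 with Pax5WT, 0.14 with Pax5K198Q and 0.07 with Pax5K198R. In the third set it was 0.27 in wild-type EV (74 of 78 higher), 0.20 in Sirt7-/- EV, 0.11 with Pax5WT and -0.02 with Pax5K198R. The nuclear-encoded respiratory chain genes differed by medians of 0.27, 0.17, 0.15 and 0.21 in the Pax5-/- set and 0.25, 0.18, 0.07 and -0.04 in the third set. The 24 cell cycle genes differed by more in the Pax5-/- set, at 0.34, 0.28, 0.41 and 0.70 with 22 to 24 of them higher in replicate 2, and by 0.22, 0.29, 0.03 and -0.10 in the third set. In the sorted set the medians of the members lay between -0.03 and 0.04, and those of the cell cycle genes were 0.06 (pro-B) and 0.34 (pre-B) for wild-type and 0.07 (pro-B) and 0.53 (pre-B) for Sirt7-/- mice. By the study's methods the replicates of a group do not come from 1 day, and the sources do not say whether the same number in different groups marks the same day. Summed stromal markers were higher in replicate 2 in 7 of the 8 cultured groups, by the most with Pax5WT (2681 and 6895 in the Pax5-/- set, 12203 and 31445 in the third set), and read 10676 and 9539 in wild-type EV. Fn1 was the most abundant of them. By the study's methods the vectors carried hCD4 or GFP as a marker, and transduced pro-B cells were selected by a sort for hCD4. For Sirt7-/- cells given a Pax5 form its results name GFP, so the marker in the third set is not settled here. The part of stromal RNA and of the cell cycle in these values was not tested.

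The last comparison asked where the Pax5 forms were found near the members' starts. A member was counted where both lists of a form had a peak summit within 1000 bases of its start. Pax5WT peaks met this at 30 of 78 members (38.5%), against 30.3% of the 12513 tested genes with a position (3791 genes). Pax5K198R peaks met it at 40 (51.3%, against 36.8%), and Pax5K198Q peaks at 8 (10.3%, against 10.4%). The forms' lists were of unequal length, with 10646 and 11830 peaks for Pax5WT, 12158 and 13997 for Pax5K198R and 3750 and 3957 for Pax5K198Q.

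**Figure D5:**
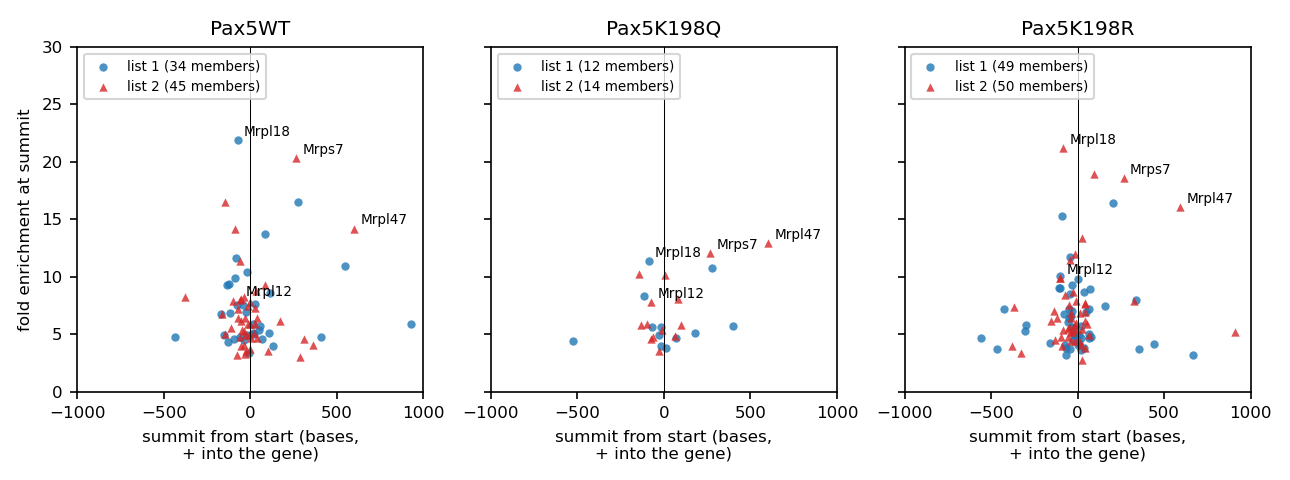
Fold enrichment over input of the peak nearest a member's start (y axis) against the distance of its summit from the start in bases (x axis, positive into the gene), for the 3 Pax5 forms (circle, list 1, triangle, list 2). The 34 and 45 members with a Pax5WT summit and the 49 and 50 with a Pax5K198R summit crowd around the start, the 12 and 14 with a Pax5K198Q summit are fewer, and Mrps7 lies above 10 in all 6 lists.

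By the count over both lists, 28 members had both Pax5WT and Pax5K198R, 12 had Pax5K198R and not Pax5WT, 2 had Pax5WT and not Pax5K198R (Mrpl4 and Mrpl17) and 0 had Pax5K198Q and not Pax5WT. Such a member can still have a summit in 1 list of the other form: for example, Mrps15 (4.11), Mrpl52 (6.94) and Mrps27 (5.01) had a Pax5WT summit in 1 list, Mrpl4 had a Pax5K198R summit in 1 list (7.49), and Mrps17 had a Pax5K198Q summit in 1 list (5.36) and none for Pax5WT. The 8 members with a peak in both lists of every form were Mrpl2, Mrpl18, Mrpl45, Mrpl47, Mrpl55, Mrps7, Mrps16 and Mrps21, while 17 members had a summit in none of the 6 lists. The same split over all tested genes is not given here. For each form alone the shares of all genes were 30.3% (Pax5WT), 36.8% (Pax5K198R) and 10.4% (Pax5K198Q). With lists of unequal length, these counts are a description and not a result particular to the members. Of the 49 members with a Pax5WT peak in at least 1 list, 40 had the summit within 150 bases of the start in every such list. The nearest summit within 1000 bases was taken, and the signed distances had a median of -23 (before the start). The same over all genes is not given here. Enrichment over input, the height the peak caller gives, ran from 3.41 to 21.9 in the first Pax5WT list over the 34 members with a summit there, with a median of 5.87.

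Mrps7, a protein of the small subunit's head, had some of the highest enrichments, at 16.5 and 20.3 with Pax5WT, 10.8 and 12.1 with Pax5K198Q and 16.4 and 18.6 with Pax5K198R. Mrpl18 read 21.9 and 14.2, 11.3 and 4.58, and 9.32 and 21.2 in the same order, and so differed as much between the lists of 1 form as between forms. Mrpl2, of the peptidyl transferase region, read 11.6 and 11.3, 8.30 and 4.79, and 15.3 and 11.5, and Mrpl45 13.7 and 9.28, 4.64 and 8.03, and 8.94 and 19.0. These 2 are the genes whose upstream stretches are shown above with an E-box and a GCGTGAC core. At Mrpl12 the enrichment was 6.78 and 7.95 with Pax5WT and 9.02 and 9.91 with Pax5K198R, and with Pax5K198Q a summit was listed in the second list only (7.76). Mrpl46 and Mrps11 are read in opposite directions from a shared start region and share their peaks. Mrps7 overlaps the coding genes Gga3 and Mif4gd, and Mrpl18 overlaps Tcp1, each on the opposite strand. Which gene's start a peak belongs to was not tested.

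The expression differences of members with and without a peak lay close together. Pax5WT minus EV had a median of 0.02 over the 30 members with a Pax5WT peak in both lists and 0.05 over the 48 without. Pax5K198R minus EV had a median of 0.08 over 40 and 0.05 over 38, and Pax5K198Q minus EV -0.06 over the 8 with a Pax5K198Q peak and 0.00 over the 70 without. No test was made of these medians, since members are not replicates of a condition.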

How the data were processed

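The authors sequenced poly(A) RNA, quantified it with Salmon on mm10 and imported it with Tximeta, and they deposited counts normalized with DESeq2 size factors, a signal that is not whole. In the sorted table whole reads could be recovered (50004827 to 55536608 per library). The authors called ChIP-seq peaks with MACS2 against input in each sample after Bowtie2 alignment, and deposited for each peak its fold enrichment, which was used here, and its −log10 q-value, which was used for a stricter threshold as an alternative. In 1 Pax5K198R list the peak names carry another replicate number.

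Genes that reached 10 normalized counts in 2 or more of the 8 libraries of a set (17649, 13345 and 13651 genes) were fitted on log2(value + 1) with limma 3.58.1 in R 4.3.3, with a mean-variance trend and the 4 groups of a set in 1 fit, and adjusted with Benjamini-Hochberg over all of them. Fold changes are on that scale and understate low genes. A call is an adjusted p under 0.05, and every group has n = 2. An exact permutation test of 2 against 2 cannot go below p = 0.33. edgeR 4.0.16 and DESeq2 1.42.0 on recovered reads, the replicate block, total-count scaling, the filter and leaving out each library were alternatives. The limma fit was tested on simulated counts of the sorted set, for the wild-type stage comparison, and the other steps were not tested in this way.

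Members and gene lists were chosen with earlier results of these data known. Genes were named by largest changes among those called, largest F statistic, smallest unadjusted p where 0 were called, and fixed lists. For 4 sorted libraries the cell type field goes against the title; titles were used, and Spn was lower and Il2ra and Ms4a1 higher in the libraries titled pre-B. Each mouse gave both stages, so these samples are paired by mouse (correlations of deviations 0.0798 and 0.156 in wild-type and Sirt7-/- mice). The block was the mouse for the stage and the interaction, and the replicate number elsewhere. In the cultures libraries of the same number also deviated together (0.264 to 0.383 and 0.156 to 0.428 over the 6 pairs of groups of each set), which rests on the data and not on a label. The Pax5-/- cells are called bone marrow pro-B cells in the labels and fetal liver cells in the methods. Sequences and motifs come from RefSeq and positions from GENCODE, both of GRCm38. Genes of mitochondrial DNA were not analysed here in the cultured sets.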

Additional observations from a re-analysis of the deposited data

Results flagged for a closer look

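For some members the effect of a contrast had opposite signs in different settings, with every library of a group moving the same way. Between sorted stages the Sirt7-/- minus wild-type difference of Mrpl47 was 0.1942 on the log2 scale in pro-B and -0.1347 in pre-B cells, that of Mrps18c 0.3281 and -0.255, and that of Mrpl53 -0.704 and 0.498. The interaction term tested these differences, and 0 of the 3 passed the limma adjusted threshold.

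Between the Pax5-/- and the Sirt7-/- cultures the effects come from tables normalized separately, and their difference was not tested. Pax5WT minus EV of Mrpl32 was 0.1428 in Pax5-/- and -0.0859 in Sirt7-/- cells. Pax5K198R minus EV was 0.1898 and -0.1993 for Mrpl49, 0.0931 and -0.0938 for Mrpl32, -0.3035 and 0.2734 for Mrps12, and 0.448 and -0.1975 for Mrpl35. None of these members was called in either culture.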

How the results depend on the processing

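The median decrease of the members in pre-B cells kept its direction under every alternative run. Total-count scaling moved the median from -0.36 to -0.45 in wild-type and from -0.41 to -0.51 in Sirt7-/- cells, with 3 and 2 members higher and 40 and 47 lower, and it moved the median of all genes to -0.12 and -0.14. Among all genes the split then became 2703 higher and 4389 lower in wild-type cells (3200 and 3890 before) and 2405 and 4029 in Sirt7-/- cells (2913 and 3380 before). Leaving out 1 library gave medians of -0.39 to -0.32 and -0.49 to -0.41. It gave 16 to 21 members called in wild-type and 9 to 32 in Sirt7-/- cells in either direction, where it called 4698 to 5244 and 3705 to 5836 of all 17649 genes. Fewer samples leave fewer degrees of freedom. edgeR called 30 and 39 members (38.5% and 33.8% of all genes), DESeq2 33 and 46 (42.8% and 38.6%), and the fit with no filter 29 and 39 (25.5% and 21.9%).

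The replicate block, here each mouse as a term, changed the sorted stage counts to 35 and 41, where 43.1% and 38.5% of all genes were called, and it changed no other count of members called there. Over all genes it moved the interaction from 1 to 0. For Sirt7-/- minus wild-type cells the block was the replicate number, which ties unrelated mice, and it moved the calls from 11 to 15 in pro-B and from 15 to 7 in pre-B cells. In the Pax5-/- cultures the fit with the replicate block called 1 member for Pax5WT minus EV (Mrpl52, 0.54), 3 for Pax5K198R minus EV (Mrpl13 0.28, Mrpl30 0.30, Mrpl42 0.42) and 1 for Pax5K198R minus Pax5WT (Mrpl52, -0.71), in place of 0, where it called 10.1%, 21.2% and 7.52% of all genes (3.25%, 9.92% and 2.87% without it). In the third set it called 0 members.

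DESeq2 on recovered reads called 1 member for Sirt7-/- minus wild-type pre-B cells, Mrpl12, and 4.12% of all genes. With 1 library left out, the median of that comparison was 0.0244 to 0.0597 and that of the interaction -0.0626 to 0.0146. For Pax5WT, Pax5K198Q and Pax5K198R minus EV in Pax5-/- cells it was -0.0812 to 0.148, -0.142 to 0.104 and -0.0240 to 0.186, the extremes coming without EV replicates 1 and 2. For cultured Sirt7-/- minus wild-type EV it was -0.206 to 0.0730, without wild-type EV replicates 1 and 2. The cause was not tested. In each Pax5K198Q list alone 12 and 14 members had a peak (15.4% and 17.9%, against 15.8% of all genes in each). Mrpl53 in wild-type cells ran from -0.30 (without pro-B replicate 2) to 0.49. For Pax5WT and Pax5K198R minus EV in Sirt7-/- cells the median was -0.0793 to 0.128 and -0.0729 to 0.125, and for Pax5K198Q and Pax5K198R minus Pax5WT in Pax5-/- cells -0.136 to 0.0118 and 0.0121 to 0.0946. At the stage comparison 28 of 32 wild-type and 36 of 40 Sirt7-/- calls were kept under all the alternatives that used every library. Fewer were kept whichever library was left out. The same shares over all called genes are not given here.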
